A study of Saccharomyces cerevisiae with 4 samples.

Results

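The genes described here are the 33 genes that encode the subunits of the budding yeast 26S proteasome, together with RPN4, the transcription factor that controls them, CDC48, which encodes the ATPase that pulls ubiquitylated proteins out of complexes and membranes, and UBI4, which encodes a chain of head-to-tail ubiquitin units. The 36 genes were chosen by name and systematic identifier, for example YDL020C for RPN4, YDL126C for CDC48 and YLL039C for UBI4, out of 7071 genes in the tables. Of the subunits, 14 belong to the 20S core, 10 to the base and 9 to the lid. All 36 genes passed the filter on low counts, which left 5527 genes for the tests.

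RNA was sequenced from 4 samples of the wild-type strain CB67, which is of W303 origin. In 2 samples the cells were given thiolutin (20 μg/ml) for 30 min, and in 2 they were given its solvent DMSO. Thiolutin is a small molecule that the study used as an inhibitor of the yeast RNA polymerases. All 4 samples, the DMSO samples included, had been arrested in G2/M beforehand with benomyl (80 μg/ml, 90 min), a drug that depolymerises microtubules. The replicates of each group are called a and b. A pellet of fission yeast (Schizosaccharomyces pombe, 5 ml at an optical density of 0.4) was combined with the pellet from 45 ml of culture of each sample before RNA extraction, as a spike-in. Total RNA was used, and a kit removed large rRNA in part, so rRNA was still among the counts.

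The proteasome is the protease that degrades proteins marked with ubiquitin. Its 20S core is a barrel of alpha and beta rings with the proteolytic sites inside, the base unfolds substrates with a ring of ATPases, and the lid removes the ubiquitin. Rpn4 binds a short promoter motif, the proteasome-associated control element (PACE), upstream of most of these genes. It is itself a very short-lived substrate of the proteasome, which makes the system a feedback loop: when the proteasome is slow, Rpn4 lasts longer and its target genes are transcribed more.

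The promoters were searched for this motif in the R64 genome, in windows running from 250 bases before the start codon to 50 bases after its first base. Its letters are GGTGGCAAA, and both strands were read. It was present in 29 of the 36 windows, against 72 of the 6001 windows of all protein-coding genes (1.2%). The matches below are shown because they belong to the core genes with the largest fold changes (SCL1, PUP2 and PRE3), to the genes with the largest one in the base (RPT1) and in the lid (RPN3), to the genes that have the motif and a fold change below 0 (PUP3, PRE10 and RPN7), and to CDC48 and UBI4. Capitals mark the motif, each sequence is written so that the motif reads 5′ to 3′, and positions are on R64.
SCL1, core, chrVII:475335-475367, plus strand: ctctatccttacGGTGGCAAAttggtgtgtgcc
PUP2, core, chrVII:999224-999256, minus strand: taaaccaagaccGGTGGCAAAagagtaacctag
PRE3, core, chrX:435033-435065, plus strand: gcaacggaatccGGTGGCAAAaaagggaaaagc
PUP3, core, chrV:349509-349541, minus strand: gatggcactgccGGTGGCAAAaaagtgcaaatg
PRE10, core, chrXV:1018854-1018886, minus strand: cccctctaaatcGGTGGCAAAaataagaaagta
RPT1, base, chrXI:174046-174078, minus strand: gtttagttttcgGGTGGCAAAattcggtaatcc
RPN3, lid, chrV:196841-196873, minus strand: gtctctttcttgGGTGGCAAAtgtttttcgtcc
RPN7, lid, chrXVI:742288-742320, minus strand: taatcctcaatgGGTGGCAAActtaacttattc
CDC48, chrIV:238785-238817, minus strand: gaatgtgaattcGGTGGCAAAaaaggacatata
UBI4, chrXII:65347-65379, plus strand: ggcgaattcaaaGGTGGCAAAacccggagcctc

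Each of the 29 promoters held a single match. It lay between 84 and 183 bases before the start codon, with a median of 124, and 20 matches ran in the direction of the gene while 9 ran against it. The base after the motif was an a in 20 of the matches, a t in 8 and a c in 1. By subcomplex the motif was present in 12 of 14 core genes, 8 of 10 base genes and 7 of 9 lid genes. The subunit genes with no match were PRE5, PUP1, RPN8, RPN10, RPN13 and SEM1, also when the window was extended to 500 bases before the start codon.

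RPN4 has no match to this motif either. Its own window is shown because it held the only heat shock element among the 36 windows of this length. The heat shock element, the site of the factor Hsf1, was searched for on both strands as 3 alternating units, TTCNNGAANNTTC or GAANNTTCNNGAA, and was present in 0.783% of all windows. The window is chrIV:416659-416958, minus strand, written in the direction of the gene with the element in capitals.
RPN4 promoter: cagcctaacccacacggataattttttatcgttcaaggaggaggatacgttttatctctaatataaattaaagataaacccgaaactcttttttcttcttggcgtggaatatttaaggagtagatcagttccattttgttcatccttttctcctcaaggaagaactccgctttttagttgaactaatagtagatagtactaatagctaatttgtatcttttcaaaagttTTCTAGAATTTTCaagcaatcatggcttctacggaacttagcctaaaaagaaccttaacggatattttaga

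This element began 21 bases before the start codon. In the longer window of 500 bases RPN4 had another heat shock element, 348 bases before the start codon, and a match to the Yap1 element TTACTAA, 374 bases before it. Both are shown in the direction of the gene, with the element in capitals.
RPN4 upstream heat shock element, chrIV:417032-417068, minus strand: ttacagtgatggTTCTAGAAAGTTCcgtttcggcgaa
RPN4 Yap1 element, chrIV:417064-417094, minus strand: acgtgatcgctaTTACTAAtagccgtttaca

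The heat shock element was present in 1.52% and the Yap1 element in 12.5% of all windows of that length. UBI4 was the only other gene of the 36 with a heat shock element there, as overlapping matches 384 and 379 bases before its start codon. The stress response element AGGGG was about as frequent as in other promoters, with 25% of the 36 windows of 250 bases against 21.6% of all. A Pdr1/Pdr3 element, TCCGCGGA, was in 1 of the 36 windows, that of RPN11, against 0.217% of all. RPN4 had no match to it, also in the longer window. These matches are letters in a window and not measurements of binding.

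The expected counts summed to 38613462 and 11598766 in the thiolutin libraries a and b and to 27262771 and 48045781 in the DMSO libraries a and b. Protein-coding genes took 6.56% and 8.12% of them with thiolutin and 11.8% and 11.2% with DMSO. The 36 genes had between 98 and 5656 counts in thiolutin a and between 38 and 1908 in thiolutin b, against between 112 and 7369 in DMSO a and between 181 and 11726 in DMSO b, so thiolutin b sets the precision of the lower genes. The libraries were compared on a pair of scales. On the TMM scale (trimmed mean of M values) the typical gene is set to no change, and a normalized count is the count brought to a common library size. On the S. pombe scale, each library is divided by its number of S. pombe reads, and the median of all genes moved to a log2 fold change of -1.01, against -0.02 on the TMM scale. As a check of the arrest, the levels per kb of the G2/M genes CLB2, CDC5, CDC20, SWI5 and CLB1 lay between 39.1 and 98.8 with thiolutin and between 44.4 and 277 with DMSO, and those of the G1 genes SIC1, PCL9, CLN2 and EGT2 between 6.79 and 20 with thiolutin and between 6.27 and 23.7 with DMSO. CLB2, CDC5 and CLB1 were lower with thiolutin (TMM log2 fold changes of -2.13, -1.07 and -1.43). CDC20 (-0.15) and SWI5 (0.61) did not pass the test. The part of these changes in the results below was not tested.

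The main comparison asks which of the 36 genes changed with thiolutin. On the TMM scale 18 of them rose at an adjusted p under 0.05 and 31 had a positive log2 fold change, with a median of 0.46, whereas on the S. pombe scale the median was -0.50. Across all genes tested, 18.5% were higher and 17.6% were lower by the same rule, with a median of -0.02. None of the 36 genes fell on the TMM scale, and none had an unadjusted p under 0.05 in that direction, with edgeR's likelihood ratio test and the DESeq2 Wald test also giving 0. The libraries did not overlap, with both thiolutin libraries above both DMSO libraries, for 30 of the 36 genes, against 33.2% of all genes. For PUP3 and RPN13 both thiolutin libraries were below both DMSO libraries, as for 36.7% of all genes, and for PRE10, RPN10, RPN7 and SEM1 the libraries overlapped. At the study's threshold of 1e-05 no gene of the 36 was called by the quasi-likelihood test (0.796% of all genes were higher). The study set this threshold on an edgeR generalized linear model. With edgeR's likelihood ratio test 6 of the 36 genes were higher at 1e-05, where the share of all genes was not counted. Adjusted p-values come from the quasi-likelihood test of edgeR, adjusted over the 5527 genes after Benjamini and Hochberg, and the errors of log2 fold changes are standard errors (n = 2 libraries per group).

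The count of 18 rested on both DMSO libraries, as did the count over all genes. It was 6 without DMSO a and 8 without DMSO b, where the lone DMSO library is taken to vary like the thiolutin pair, and the share of all genes called higher was then 6.95% and 8.68%. It was 19 without thiolutin a and 24 without thiolutin b, with 20.9% and 22.9% of all genes. RPN4, SCL1, PUP2, PRE3, PRE2 and RPT1 were called whichever library was left out, whereas the call of PRE4 was also lost without thiolutin b and that of RPN5 without thiolutin a. RPN2 and RPT5, not called with all 4 libraries, passed the test without thiolutin a, and PRE9, PRE6, PRE1, PRE7, RPN8, SEM1 and UBI4 passed it without thiolutin b.

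**Figure D1:**
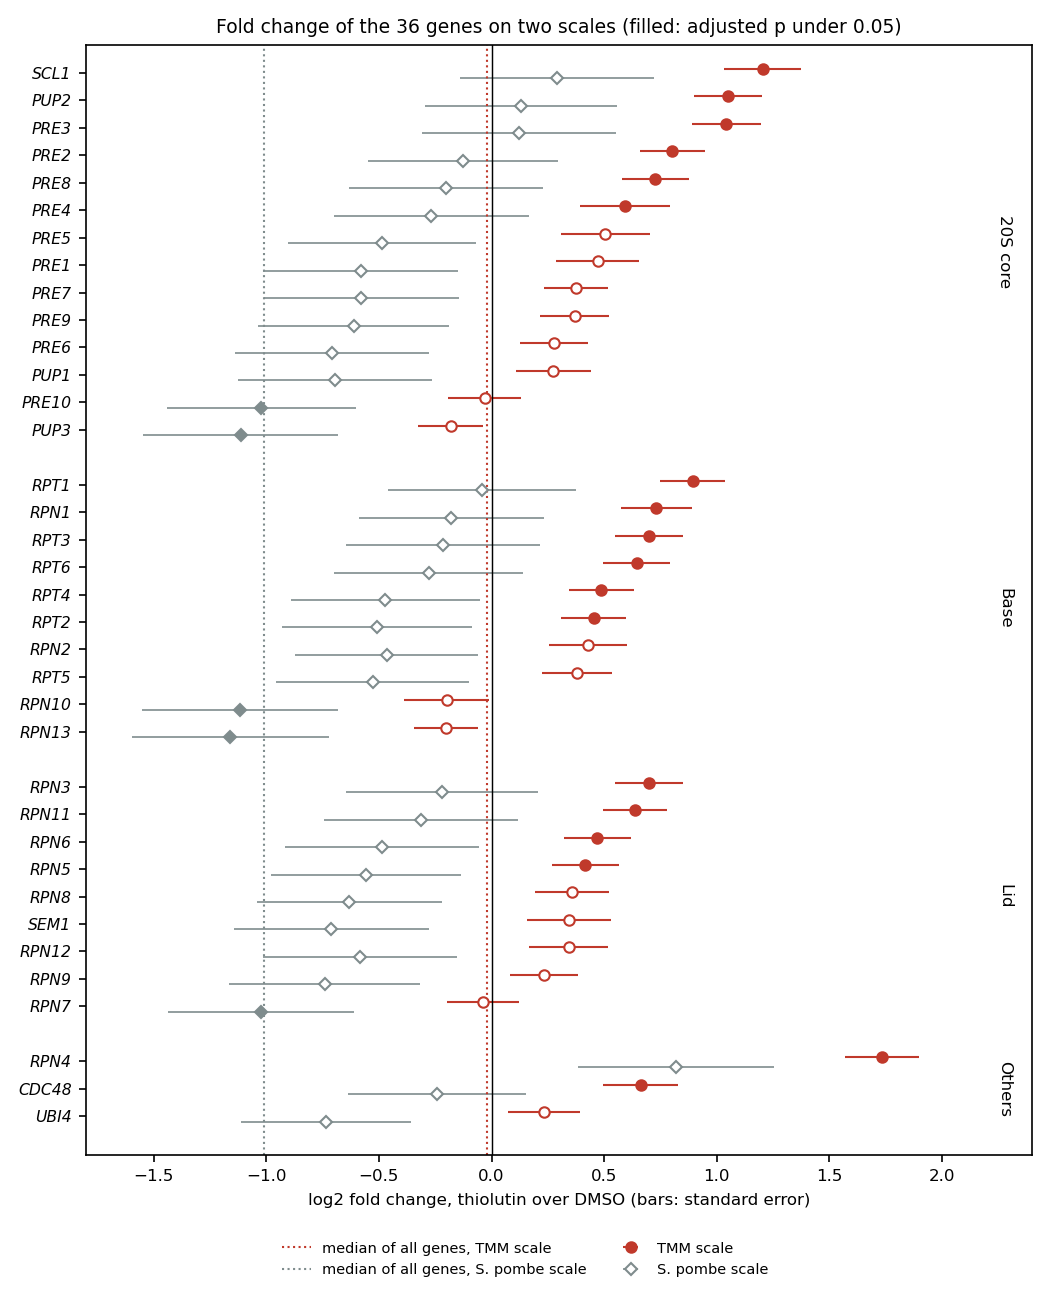
Log2 fold change of each of the 36 genes, thiolutin over DMSO, with its standard error, on the TMM scale (red circles) and on the S. pombe scale (grey diamonds); filled symbols have an adjusted p under 0.05 and dotted lines are the medians of all genes, at -0.02 and -1.01. On the TMM scale 31 genes lie right of 0 and 18 are filled, whereas on the S. pombe scale 32 lie left of 0 and only RPN4, SCL1, PUP2 and PRE3 lie right of it.

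RPN4 had the largest fold change of the 36 genes. The gene lies at chrIV:415113-416708 on the minus strand. Its normalized counts on the TMM scale were 451 and 528 in the thiolutin libraries a and b, against 138 and 152 in the DMSO libraries a and b. Both thiolutin libraries were about equally far above the DMSO libraries, which lay close together. The log2 fold change was 1.73 ± 0.17 (adjusted p = 3.06e-05), and 105 of all genes tested had a larger one. Leaving out each library in turn gave values from 1.61 to 1.85, with an adjusted p of at most 5.88e-05. Scaled to S. pombe reads, the counts of RPN4 were 238 and 443 with thiolutin and 188 and 192 with DMSO. The libraries still did not overlap, as for 2.48% of all genes, and the other 35 genes did not show this on that scale. The S. pombe-scale log2 fold change was 0.82 and did not pass the test (adjusted p = 0.0969). On that scale the thiolutin libraries lay further from each other than on the TMM scale.

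CDC48 (chrIV:236157-238664, minus strand) also rose on the TMM scale. It had 4627 and 5828 normalized counts in the thiolutin libraries a and b, against 3207 and 3390.2 in the DMSO libraries a and b. The log2 fold change was 0.66 ± 0.17 (adjusted p = 0.00962), and on the S. pombe scale it was -0.24 (adjusted p = 0.599). The call was lost without either DMSO library, with log2 fold changes of 0.62 without DMSO a and 0.70 without DMSO b and an adjusted p of at most 0.171.

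UBI4 (chrXII:64062-65207, minus strand), the ubiquitin gene that is best known for its induction by stress, did not pass the test. Its normalized counts were 7949.5 and 7002 in the thiolutin libraries a and b and 6521 and 6217 in the DMSO libraries a and b. Per kb these were 7350 and 6475 with thiolutin and 6030 and 5749 with DMSO, the highest of the 36 genes in all 4 libraries. The thiolutin libraries lay just above the DMSO libraries. The log2 fold change was 0.23 ± 0.16 on the TMM scale (adjusted p = 0.277) and -0.73 on the S. pombe scale (adjusted p = 0.0859). UBI4 was 1 of 5 genes of the 36 whose expected counts were not whole numbers. The others were PRE1, RPT2, RPT4 and RPN2. The authors' software divides reads that fit several genes. The other ubiquitin genes RPL40A, RPL40B and RPS31 also had counts that were not whole. In thiolutin a RPS31 had 64417.63 expected counts, against 5655.61 for UBI4. The value of UBI4 may thus hold reads divided between these genes, which was not tested.

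Among the subunit genes, 16 of 33 rose on the TMM scale and none fell, with a median log2 fold change of 0.45, against -0.51 on the S. pombe scale. The normalized counts of the 33 genes added up to 48460.3 and 48947 in the thiolutin libraries and to 35939 and 35071 in the DMSO libraries on the TMM scale, with the replicates close together. As a share of all protein-coding counts, which uses neither scale, they took 1.36% and 1.42% with thiolutin and 1.26% and 1.23% with DMSO. In proportion, this difference is smaller than that of the sums on the TMM scale. The median log2 fold change was 0.49 in the core (6 of 14 genes rose), 0.47 in the base (6 of 10) and 0.36 in the lid (4 of 9), and these medians were -0.53, -0.47 and -0.59 on the S. pombe scale. The SD of the log2 fold changes between genes was 0.40 in the core, 0.37 in the base and 0.22 in the lid, and the subcomplexes were not tested against each other.

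In the core, 3 of the 7 genes of the alpha rings, which gate the barrel, and 3 of the 7 genes of the beta rings rose on the TMM scale. SCL1 (YGL011C, chrVII:474489-475247), an alpha-ring subunit, had the largest change of all subunits, with 541 and 617 normalized counts in the thiolutin libraries a and b, against 217 and 279 in the DMSO libraries a and b. Its log2 fold change was 1.20 ± 0.17 (adjusted p = 0.000401). PUP2, another alpha-ring subunit, had 1959 and 2220.3 normalized counts with thiolutin and 961 and 1050.4 with DMSO, a log2 fold change of 1.05 ± 0.15 (adjusted p = 0.00045). In both genes each thiolutin library was well above each DMSO library.

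At the other end of the core, PRE10, also of the alpha ring, had 2415 and 1905 normalized counts with thiolutin and 2309 and 2120.3 with DMSO, so that the libraries of the groups overlapped. Its log2 fold change was -0.03 ± 0.16 (adjusted p = 0.90). PUP3, of the beta ring, had 974 and 1064 normalized counts with thiolutin and 1141 and 1164 with DMSO, a log2 fold change of -0.18 ± 0.14 (adjusted p = 0.348). Both rings thus held genes that rose and genes that did not pass the test, although their subunits are built in in equal number. On the S. pombe scale PRE10 and PUP3 were called lower, at -1.02 and -1.11, which is close to the median of all genes.

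The proteolytic activity of the core sits in 3 beta subunits. PRE3, the caspase-like site, had 624 and 738 normalized counts in the thiolutin libraries and 339.8 and 316 in the DMSO libraries. PRE2, the chymotrypsin-like site, had 2201 and 2400.2 normalized counts with thiolutin and 1327 and 1305 with DMSO. PUP1, the trypsin-like site, had 256 and 253 normalized counts with thiolutin, against 200.0 and 220.0 with DMSO. The thiolutin libraries were above the DMSO libraries for each of them, as for 33.2% of all genes, but the sizes differed. The log2 fold changes were 1.04 ± 0.15 for PRE3 (adjusted p = 0.000512), 0.80 ± 0.15 for PRE2 (adjusted p = 0.00172) and 0.28 ± 0.17 for PUP1 (adjusted p = 0.218), and the difference between the genes was not tested. PUP1 is the active-site gene without the PACE motif.

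The remaining core genes that rose were PRE8, of the alpha ring, with a log2 fold change of 0.73, and PRE4, of the beta ring, with 0.59. PRE4 rested on thiolutin b, without which its log2 fold change was 0.30 and its adjusted p was 0.108. PRE5, PRE1, PRE7, PRE9 and PRE6 had log2 fold changes between 0.28 and 0.51 that did not pass the test. Their thiolutin libraries were above both DMSO libraries for each gene, as for 33.2% of all genes.

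In the base, the 6 ATPases RPT1 to RPT6, which form the ring that unfolds substrates, were examined first. On the TMM scale 5 of them rose, against 18.5% of all genes. The thiolutin libraries were above the DMSO libraries for all 6, against 33.2% of all genes. The median log2 fold change was 0.57 (-0.38 on the S. pombe scale). RPT1 (YKL145W) had 2637 and 2808 normalized counts in the thiolutin libraries a and b, against 1479.6 and 1449 in the DMSO libraries a and b. Its log2 fold change of 0.89 ± 0.15 (adjusted p = 0.000927) was the largest in the base. RPT5, the ATPase that did not pass the test, had a log2 fold change of 0.38 (adjusted p = 0.0775).

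The 4 other base genes differed more among themselves. RPN1, a scaffold that binds ubiquitin and its shuttle proteins, had 2936 and 3600.3 normalized counts with thiolutin and 1994 and 1935 with DMSO, a log2 fold change of 0.73 ± 0.16 (adjusted p = 0.00454). RPN2, the other scaffold, had a log2 fold change of 0.43 that did not pass the test (adjusted p = 0.076), and the value depended on the library left out, with 0.63 without thiolutin a (adjusted p = 1.99e-05) and 0.17 without thiolutin b (adjusted p = 0.293). The ubiquitin receptors RPN10 and RPN13 had the lowest fold changes of all 33 subunit genes.

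RPN10 had 183 and 224 normalized counts with thiolutin and 204 and 250.3 with DMSO, so that the groups overlapped. RPN13 had 474 and 481 normalized counts with thiolutin, below the 558 and 541 with DMSO. Their log2 fold changes were both -0.20, with errors of 0.19 for RPN10 (adjusted p = 0.438) and 0.14 for RPN13 (adjusted p = 0.29). Neither has the PACE motif. Thus, of the 3 ubiquitin receptors of the proteasome, RPN1 rose on the TMM scale while RPN10 and RPN13 did not pass the test.

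In the lid, RPN11 encodes the zinc-dependent deubiquitinase that cuts ubiquitin off the substrate. It had 964 and 954 normalized counts in the thiolutin libraries a and b and 602 and 631 in the DMSO libraries a and b, with a log2 fold change of 0.64 ± 0.14 (adjusted p = 0.00513). RPN3, a scaffold subunit, had 1761 and 2059 normalized counts with thiolutin and 1211 and 1133 with DMSO, and its log2 fold change of 0.70 ± 0.15 (adjusted p = 0.00456) was the largest in the lid. In both genes the thiolutin libraries were well above the DMSO libraries.

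The scaffold subunits RPN6 and RPN5 also rose on the TMM scale, by 0.47 and 0.42. RPN5 was close to the threshold (adjusted p = 0.0496). RPN7 had 2781 and 2286 normalized counts with thiolutin and 2744 and 2478 with DMSO, a log2 fold change of -0.04 ± 0.16 (adjusted p = 0.867), and its groups overlapped. RPN9 had 2093 and 1828 normalized counts with thiolutin and 1752 and 1593 with DMSO, a log2 fold change of 0.23 ± 0.15 (adjusted p = 0.252).

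RPN8, the partner of RPN11, and RPN12 had log2 fold changes of 0.36 and 0.34 that did not pass the test. SEM1, the smallest subunit, had 502 and 338 normalized counts with thiolutin and 360 and 321 with DMSO, so that thiolutin b lay among the DMSO libraries. Its log2 fold change was 0.35 ± 0.19 (adjusted p = 0.171), and it was -0.01 without thiolutin a.

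**Figure D2:**
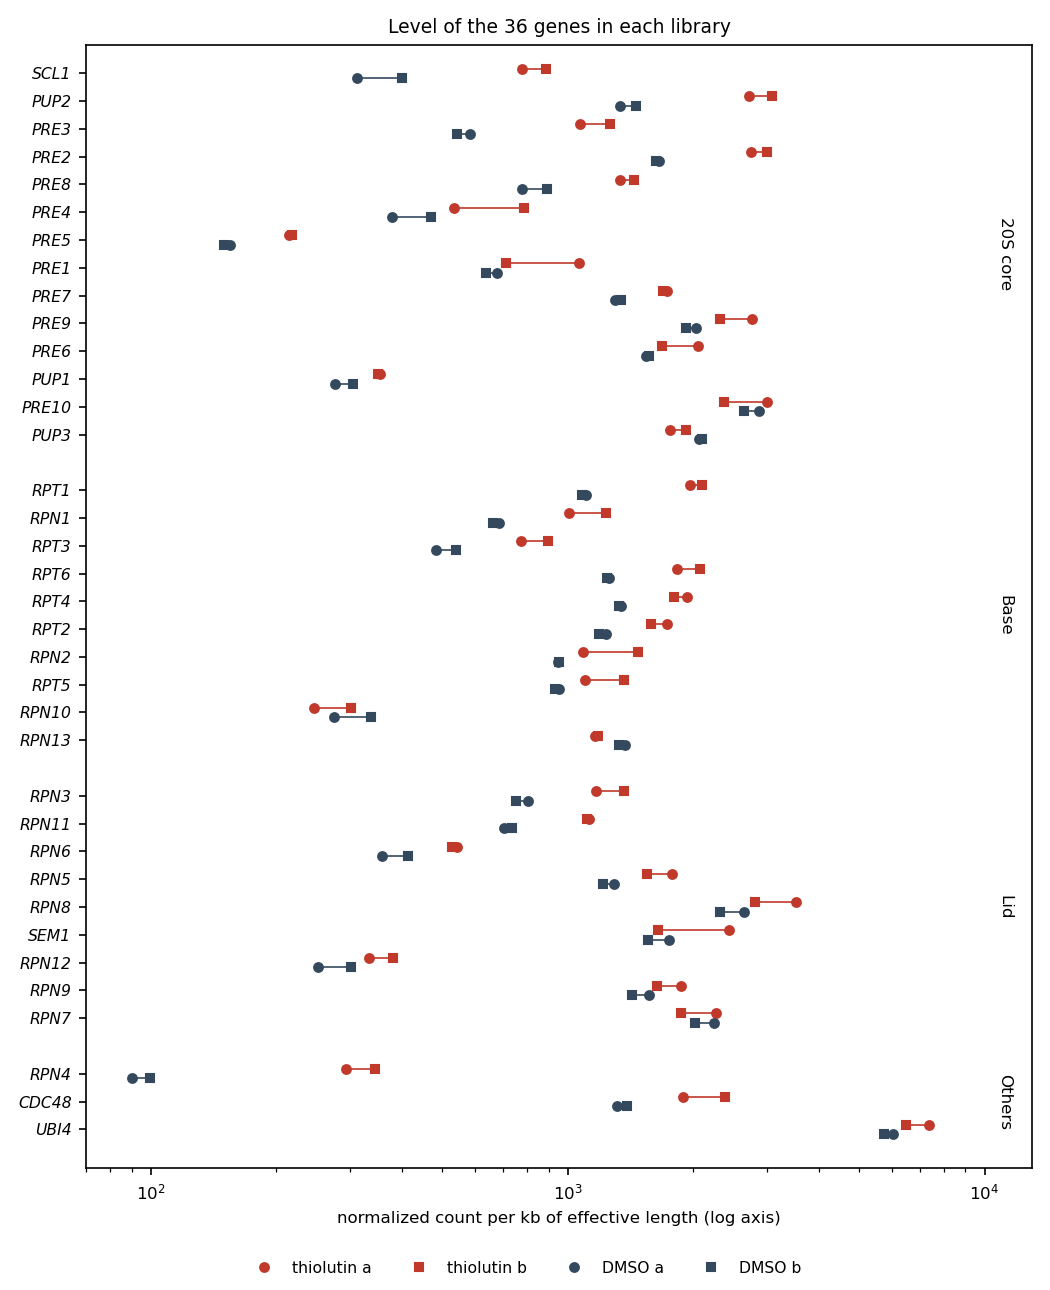
Normalized counts per kb of effective length of the 36 genes in each library, on a log axis, in the order of their fold change within each subcomplex; red symbols are thiolutin a (circle) and b (square) and dark symbols are DMSO a and b. RPN4 lies between 295 and 345 per kb with thiolutin and between 90.1 and 99.4 with DMSO, and UBI4 has the highest levels in all libraries.

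Levels of different genes were compared as normalized counts per kb of effective length on the TMM scale. Although the subunits are built into the proteasome in fixed proportions, their mean levels differed by 14.7 times with thiolutin and 18.1 times with DMSO between the lowest and the highest gene. The lowest was PRE5, with a mean of 216 per kb with thiolutin and 152 with DMSO. The highest were RPN8 with thiolutin (3177 per kb) and PRE10 with DMSO (2759.6 per kb). Next in the DMSO order after PRE5 came RPN12 (278 per kb), PUP1 (291 per kb) and RPN10 (306 per kb).

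The order of the 33 genes was largely kept. Spearman's rho between their mean levels with thiolutin and with DMSO was 0.93 over 33 genes, as a description, since the genes share libraries. The SD of log2 levels between the subunits was 1.05 and 0.96 in the thiolutin libraries and 1.09 and 0.99 in the DMSO libraries, so that the levels of the subunits were about as unequal with thiolutin as with DMSO. The median level was 1535 and 1563 per kb with thiolutin and 1039 and 1116 with DMSO in the core, 1134 and 1420.3 with thiolutin and 1028 and 1016 with DMSO in the base, and 1782 and 1553 with thiolutin and 1291 and 1215 with DMSO in the lid. RPN4 had the lowest level of the 36 genes with DMSO (94.8 per kb), whereas with thiolutin its level of 319.8 per kb was above those of PRE5 and RPN10.

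The fold changes were then set beside the promoters. Of the 27 subunit genes with the PACE motif, 16 rose on the TMM scale and 11 did not pass the test, with a median log2 fold change of 0.47 (-0.47 on the S. pombe scale). Of the 6 without it, none rose, against 18.5% of all genes. Their median was 0.31 (-0.70 on the S. pombe scale), with a range from -0.20 to 0.51, the value of PRE5. All 16 subunit genes that rose thus have the motif, as do 27 of all 33 subunit genes. PUP3, PRE10 and RPN7, with fold changes below 0, have it as well. Without thiolutin b the values of PRE10 and RPN7 were above 0, at 0.11 and 0.07. CDC48, which rose, and UBI4, which did not pass the test, also carry the motif. Low counts limit the test for several of the 6 subunit genes without it. In thiolutin b PRE5, RPN10, PUP1 and SEM1 had 38, 61, 69 and 92 counts, and RPN13 and RPN8 had 131 and 732. The log2 fold change of PRE5 was above that of RPT4 (0.49), which has the motif and was called. PRE5 passed edgeR's likelihood ratio test (adjusted p = 0.0477). The subunit genes with and without the motif were not tested against each other.

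Outside the 36 genes, the share called higher was similar with and without the motif. Among the other genes tested, 39 have the same letters in their window, and 7 of these (17.9%) were higher and 4 (10.3%) were lower on the TMM scale, with a median of -0.07. These shares were 17.8% and 18.4% among the 5195 other genes without the motif. Of the 39 genes, 6 are divergent neighbours that share the very same match with a gene of the 36. Of these 6, 0 were higher and 1 was lower. Of the 33 whose match is not shared with a gene of the 36, 7 (21.2%) were higher and 3 (9.09%) were lower. Whether neighbours among these 33 share a match with each other was not examined. MPO1, which was picked out after its value was seen, shares the match of SCL1 printed above and fell, with 2.81 and 0 normalized counts with thiolutin and 54.9 and 38.2 with DMSO (adjusted p = 0.000809). Genes on both sides of that match therefore differed in sign, at low counts for MPO1.

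**Figure D3:**
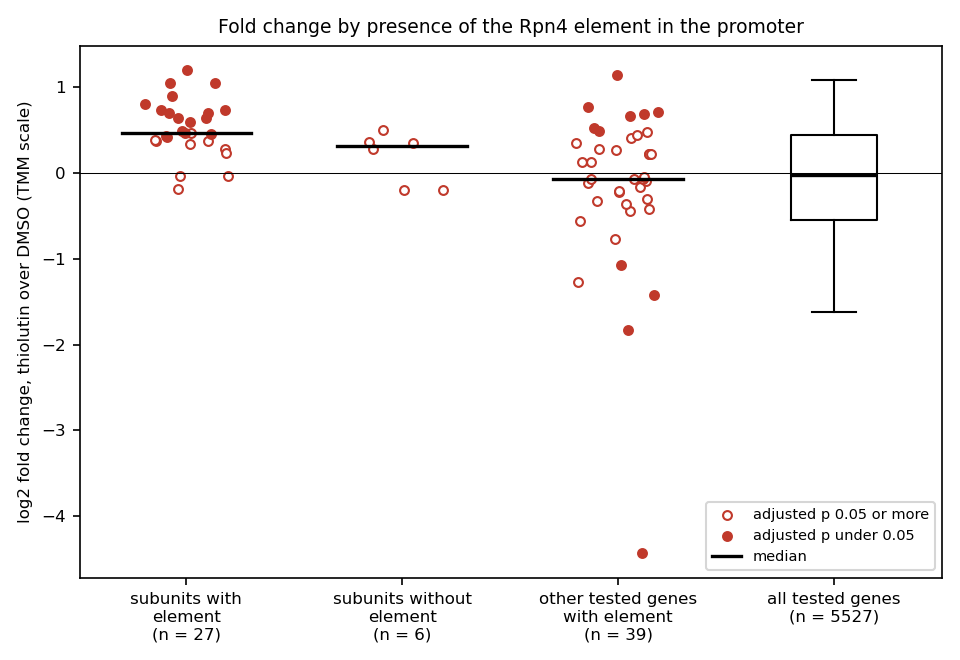
Log2 fold change on the TMM scale, thiolutin over DMSO, of the 27 subunit genes with the PACE motif, the 6 without it and the 39 other tested genes with it (filled points: adjusted p under 0.05, black lines: medians of 0.47, 0.31 and -0.07), beside a box of all 5527 genes (quartiles, whiskers from the 5th to the 95th percentile). The 16 filled subunits are all in the first group, and the other genes with the motif spread to both sides of 0. Low counts limit the test for several of the 6 subunits without the motif. On the S. pombe scale the first 3 medians are -0.47, -0.70 and -0.99.

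Other genes that act with the proteasome were counted by list, and their counts stand against 18.5% of all genes higher and 17.6% lower. Of 10 assembly chaperones, which help to build the core and the base, ADD66, HSM3 and RPN14 rose on the TMM scale and NAS6 fell, with a log2 fold change of -1.04 (adjusted p = 0.000837) and 235 and 191 normalized counts with thiolutin, against 458 and 437 with DMSO. NAS6, HSM3 and RPN14 all serve as chaperones of the base ATPases, so genes of the same role moved in both directions. Of 6 proteasome-associated factors, UBP6, the deubiquitinase that docks on RPN1, rose with a log2 fold change of 0.91, and of 3 shuttle receptors, which carry ubiquitylated proteins to the proteasome, DDI1 rose with 0.75. None of the 10 chaperones and 3 shuttle receptors has the PACE motif, and of the 6 factors ECM29 has it. ECM29 had a log2 fold change of 0.44 that did not pass the test (adjusted p = 0.0541).

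Among 14 cofactors of CDC48, UBX3 and UBX7 rose and UFD1 and WSS1 fell on the TMM scale, with a median of -0.06. These 2 of 14 in each direction are near the shares over all genes, 18.5% and 17.6%. UFD1, a subunit of the main Cdc48 adaptor for ubiquitylated proteins, had 126 and 161 normalized counts with thiolutin and 268 and 244 with DMSO (log2 fold change of -0.87, adjusted p = 0.00474). WSS1, a protease that acts on proteins crosslinked to DNA, had 70.3 and 58.7 normalized counts with thiolutin and 135 and 144 with DMSO. Its log2 fold change was -1.08 (adjusted p = 0.00357), and it carries the PACE motif.

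Most of the genes that make and attach ubiquitin did not pass the test, as for 3533 of the 5527 genes tested. RPL40A, RPL40B and RPS31, which encode ubiquitin fused to ribosomal proteins, had log2 fold changes between 0.15 and 0.45 that did not pass the test. Of 11 genes for activation and conjugation, 10 were tested, and all 10 had positive log2 fold changes on the TMM scale. UBA1, UBC4 and UBC6 rose and none fell, against 18.5% and 17.6% of all genes. UBA1, with a log2 fold change of 0.49 (adjusted p = 0.0295), carries the PACE motif. UBC4, a conjugating enzyme for short-lived and abnormal proteins, had 1159.5 and 1362 normalized counts in the thiolutin libraries and 417 and 509 in the DMSO libraries, with a log2 fold change of 1.43 (adjusted p = 9.59e-05). Its near copy UBC5 had 30.9 and 11 normalized counts with thiolutin and 21.2 and 22.8 with DMSO, and reads of the pair may be divided between them.

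For the control of RPN4 itself, the ligase UBR2 and its partner MUB1, which send Rpn4 to the proteasome, were examined. MUB1 fell, with 82.9 and 77.1 normalized counts with thiolutin and 266 and 241 with DMSO (log2 fold change of -1.64 on the TMM scale, adjusted p = 0.000135), and UBR2 had a log2 fold change of 0.04 (adjusted p = 0.91). Of the factors known to act at the RPN4 promoter, HSF1, PDR1, PDR3 and YAP1, none passed the test on the TMM scale, with log2 fold changes between -0.56 and 0.28. On the S. pombe scale HSF1 (-1.57), PDR1 (-1.26) and YAP1 (-1.31) were called lower, as were 50.7% of all genes. RNA levels do not give the amounts of these proteins.

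**Figure D4:**
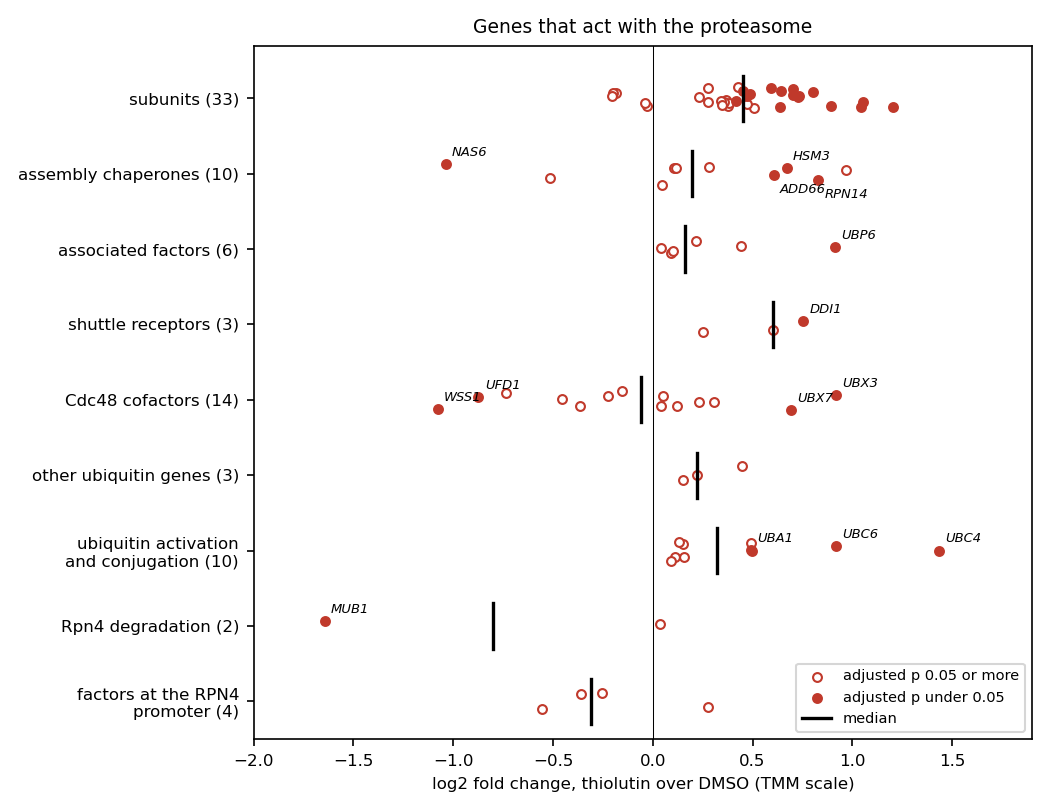
Log2 fold change on the TMM scale, thiolutin over DMSO, of the 33 subunit genes and of 8 lists of genes that act with the proteasome, 1 point per gene tested, with filled points for an adjusted p under 0.05 and black lines for the medians. The subunit median is 0.45, the Cdc48 cofactors lie on both sides of 0 with a median of -0.06, and NAS6, UFD1, WSS1 and MUB1 are the called genes below 0; on the S. pombe scale the subunit median is -0.51.

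On the S. pombe scale most of the 36 genes had negative log2 fold changes, but fewer of them were called lower than among all genes. No gene of the 36 rose on this scale at an adjusted p under 0.05, where 1.47% of all genes were called higher, and none had an unadjusted p under 0.05 in that direction. RPN13, RPN10, PUP3, PRE10 and RPN7 fell, 5 of 36 against 50.7% of all genes, with log2 fold changes between -1.16 and -1.02. Both thiolutin libraries were below both DMSO libraries for 21 of the 36 genes, against 75.7% of all genes. The median of the 36 genes was -0.50 against -1.01 for all genes. A change of library size shifts all genes of a library alike, so this distance from the typical gene restates that of the TMM scale.

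The replicates decide how far the S. pombe scale can be read. CDC48 had 2438 and 4880.3 counts scaled to S. pombe reads in the thiolutin libraries a and b and 4361 and 4281 in the DMSO libraries a and b, so that the thiolutin libraries lay on both sides of the DMSO libraries. PRE3 showed the same, with 329 and 618 with thiolutin and 462 and 399 with DMSO. Without thiolutin a the count of genes of the 36 that rose on this scale was 4 and the count that fell was 11, against 4.79% and 48% of all genes. Without thiolutin b these counts were 0 and 33, against 2.04% and 88.5% of all genes, and the median of all genes was then -1.33. Without DMSO a and without DMSO b both counts were 0, against 0.163% and 0.199% of all genes higher and 2.62% and 4.56% lower. The counts of the 36 genes thus moved with those of all genes. For RPN4 the log2 fold change on this scale was 1.22 without thiolutin a (adjusted p = 2.11e-06) and 0.32 without thiolutin b (adjusted p = 0.105).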

How the data were processed

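Members and gene lists were chosen with earlier results of these data known. Total RNA of 4 libraries was sequenced (single-end, stranded). Per the labels and the study's methods, the authors mapped reads with STAR 2.7.3a and estimated expected counts per gene with RSEM 1.3.1. These deposited expected counts are not normalized, and the deposited gene and effective lengths served for levels per kb. Counts were rounded and filtered with filterByExpr, and groups were compared in edgeR 4.0.16 (R 4.3.3) with TMM factors, its quasi-likelihood test and Benjamini-Hochberg adjustment. Alternatives used DESeq2 1.42.0, other scalings and left-out libraries. For the S. pombe scale, library sizes were the S. pombe read numbers that the study lists from Bowtie 1.2.2. Expected counts and S. pombe reads together came to between 113% and 119.9% of the sequenced reads, so some were counted in both. The submitters' processing notes name the build sacCer3, which is R64. Gene identifiers matched R64 (RefSeq), and windows were cut from that genome, where the annotated gene start was an ATG in 5997 of 6001 windows. Values per library are given for RPN4, CDC48, UBI4, the active-site, receptor and deubiquitinase genes, SEM1, the 2 largest and 2 smallest changes of each subcomplex, and listed genes past a log2 value of 1. A few others were added after their values were seen. Replicate libraries were not duplicates (chi-square per degree of freedom, over protein-coding genes, of 6.26 with thiolutin and 4.53 with DMSO). Nothing says whether a and b came from separate cultures, so p-values measure the spread between these libraries, and 0.33 is the smallest p that an exact permutation test of 2 against 2 can give.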

Additional observations from a re-analysis of the deposited data

How the results depend on the processing

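The scaling mattered most. With S. pombe reads as library size, 81 of all genes were higher and 2804 lower, and of the 36 genes 0 were higher and 5 lower. The medians of the core, base and lid turned to -0.53, -0.47 and -0.59. Log2 fold changes turned for 27 of the 36 genes, of which 13 had not been called and 14 had, namely CDC48 (-0.24), PRE8 (-0.20), PRE2 (-0.13), PRE4 (-0.27), RPT1 (-0.042), RPT2 (-0.51), RPT3 (-0.22), RPT4 (-0.47), RPT6 (-0.28), RPN1 (-0.18), RPN3 (-0.22), RPN5 (-0.56), RPN6 (-0.49) and RPN11 (-0.31), and RPN4 kept its sign at 0.82 without passing the test. This follows the shift of the median of all genes to -1.01. Without any 1 library, the 36 genes higher numbered from 6 to 24 at 0.05 and from 0 to 13 at 1e-05, all genes higher from 384 to 1263 and lower from 463 to 1219. The base median ran from 0.46 to 0.58, the lid median from 0.31 to 0.49, CDC48 from 0.47 to 0.82, UBI4 from 0.14 to 0.30 (past the threshold without thiolutin b), and on the S. pombe scale the 36 genes higher from 0 to 4, lower from 0 to 33 and RPN4 from 0.32 to 1.22. These S. pombe-scale runs were added after the data were seen. At 1e-05 the 36 genes higher numbered 1 with DESeq2 size factors, 4 with no filter, 6 with the likelihood ratio test and 6 with the DESeq2 Wald test, which called 563 of all genes lower. The base median was 0.50 with DESeq2 size factors and with the Wald test. The cause of these shifts was not tested. The replicate letters share only a name (correlation of their deviations 0.033): with a replicate block 19 of the 36 genes were higher at 0.05 and 1 at 1e-05, and 0 were lower on the S. pombe scale. Outside the S. pombe scale the called genes kept their direction under these settings, while PRE1, PRE7, PRE5, RPN2 and RPN5 crossed the threshold under some with all 4 libraries. Depth limits the lower genes: PRE5 had 38 counts in thiolutin b.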
